A study of Mus musculus with 19 samples.

Results

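The transcripts described here encode 7 proteins that take glucose into the cell and carry it down glycolysis: the glucose transporter Slc2a3, hexokinase Hk2, phosphoglucomutase Pgm1, aldolase Aldoa, triosephosphate isomerase Tpi1, glyceraldehyde-3-phosphate dehydrogenase Gapdh and phosphoglycerate mutase Pgam1. They were chosen by gene symbol, with earlier results of these data known. They are 7 of 9834 genes with a single symbol on the array. Together with the probes without a single symbol, the 9834 genes gave 16148 features. The 7 genes were read by 11 probes: 3 for Aldoa, 2 each for Tpi1 and Gapdh, and 1 for each of the others. All 7 passed the filter on missing values in every comparison.

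RNA came from FDCPmix, a mouse line of blood progenitor cells that depends on interleukin-3, and was hybridised on 19 arrays of 2 colours; the sample titles also say ES cell line, which no source used here explains. Treated cells with no stated time were set against non-treated cells on 4 arrays. Treated cells at 3, 7 and 12 h were each set against treated cells at 0 h on 4 arrays, and those at 23 h on 3. The treatment in the series design is tamoxifen, a ligand of the oestrogen receptor; no transgene or genotype is named in the labels. In each group of 4, the cells' own RNA carried Cy5 on 2 arrays and Cy3 on 2 arrays, and at 23 h it carried Cy5 on 1 array and Cy3 on 2. Nothing says that the replicates came from separate cultures, so a p-value measures only the spread between these arrays, which may be technical.

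Glycolysis turns 1 molecule of glucose into pyruvate in the cytosol and yields ATP and NADH. Slc2a proteins admit glucose and hexokinase traps it as glucose 6-phosphate, which phosphoglucomutase connects to glycogen. Aldolase splits the sugar into triose phosphates, which triosephosphate isomerase interconverts, and Gapdh and phosphoglycerate mutase act in the lower, energy-yielding steps. In blood cell precursors, growth factors such as interleukin-3 are known to maintain glucose uptake and glycolysis, and several of these genes are known targets of the transcription factors Hif1a and Myc.

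All values are log ratios as deposited, treated as log2, with each array centred on its median. The scale, the normalization and the direction are not stated in the sources used here, so a value below 0 means less in the cells' own RNA only if that RNA is the numerator, and fold sizes hold only for base 2. Each array held 1 repeated extreme value, whose sign followed the dye: above 0 where Cy5 marked the own RNA and below 0 where Cy3 did. The exception was 7 h replicate 4, with the value 16.291 although its own RNA is labelled Cy3, so the array labelled 7 h replicate 4 goes against its label. A further array, 23 h replicate 3, stood apart with a deposited median of 0.233, against -0.014 to 0.026 on the others. Time-course results are therefore also given without 7 h replicate 4, or with its sign turned. Were the sign of every Cy3 array turned instead, the 7 treated values would become 0.047 to 0.35, and no member would pass the test in any comparison.

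The promoter sequences bear on whether the 7 genes share a short sequence. Those printed are single promoters of 4 members that hold the motif searched. The motif was ACGTG, the core bound by hypoxia-inducible factors, read on both strands, and it overlaps CACGTG, the E-box bound by Myc, which was searched as well. RefSeq promoters of GRCm38.p6, from 250 bases before to 50 bases after the start, were found for 6 of the 7 members, 8 promoters in all. ACGTG was in 6 of these 8 promoters and in 5 members (Hk2, Pgm1, Aldoa, Gapdh and Pgam1), against 19.6% of all 32851 promoters of the same length. Of the 3 Aldoa promoters, 2 overlap and hold the same single match, so the 6 promoters count that match at both. CACGTG was in none of the 8, against 7.2% of all promoters. Capitals below mark ACGTG, or CACGT where the motif is on the other strand. A match is a description of letters and not a binding site.
Hk2 promoter, GRCm38.p6 chr6:82774405-82774704, minus strand: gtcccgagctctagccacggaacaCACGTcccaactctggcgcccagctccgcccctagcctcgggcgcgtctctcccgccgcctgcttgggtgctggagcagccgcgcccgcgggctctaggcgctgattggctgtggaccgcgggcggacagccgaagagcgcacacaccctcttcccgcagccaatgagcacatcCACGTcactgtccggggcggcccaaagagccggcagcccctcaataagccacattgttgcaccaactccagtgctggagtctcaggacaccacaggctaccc
Pgm1 promoter, GRCm38.p6 chr4:99929201-99929500, plus strand: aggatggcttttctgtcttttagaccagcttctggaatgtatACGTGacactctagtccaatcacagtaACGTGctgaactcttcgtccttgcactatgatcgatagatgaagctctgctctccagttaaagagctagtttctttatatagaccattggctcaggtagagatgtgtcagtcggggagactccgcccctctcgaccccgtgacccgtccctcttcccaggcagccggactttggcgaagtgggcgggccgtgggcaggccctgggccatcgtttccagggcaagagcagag
Aldoa promoter, GRCm38.p6 chr7:126799205-126799504, minus strand: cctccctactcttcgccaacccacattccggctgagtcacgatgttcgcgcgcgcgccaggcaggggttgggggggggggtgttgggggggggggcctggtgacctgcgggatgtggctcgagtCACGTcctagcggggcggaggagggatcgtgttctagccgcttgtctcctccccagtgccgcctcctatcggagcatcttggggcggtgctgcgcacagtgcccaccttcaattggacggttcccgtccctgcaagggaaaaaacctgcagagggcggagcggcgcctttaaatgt
Pgam1 promoter, GRCm38.p6 chr19:41911621-41911920, plus strand: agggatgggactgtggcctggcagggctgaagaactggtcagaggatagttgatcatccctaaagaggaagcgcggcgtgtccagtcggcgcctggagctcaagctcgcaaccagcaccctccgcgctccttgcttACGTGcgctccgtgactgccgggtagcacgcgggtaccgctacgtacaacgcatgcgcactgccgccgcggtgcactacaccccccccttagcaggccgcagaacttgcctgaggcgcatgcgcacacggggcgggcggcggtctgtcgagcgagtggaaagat

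With the treated and time-course arrays fitted apart and all arrays used as deposited, none of the 7 members passed the test in any comparison. Against their references, all 7 estimates were below 0 in treated cells, at 3, 12 and 23 h and over the 4 times. At 7 h it was 6 of 7. In treated cells all 7 were below 0 on all 4 arrays. In the time course the lowest estimates were at 3 h for Slc2a3, Pgm1, Aldoa, Tpi1, Gapdh and Pgam1 and at 12 h for Hk2; without 7 h replicate 4 they were at 7 h for Aldoa and Gapdh. At 23 h, with all 3 arrays, all 7 estimates were between -0.13 and -0.020. The test was limma with Benjamini-Hochberg adjustment over all features, and a call means an adjusted p under 0.05.

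**Figure D1:**
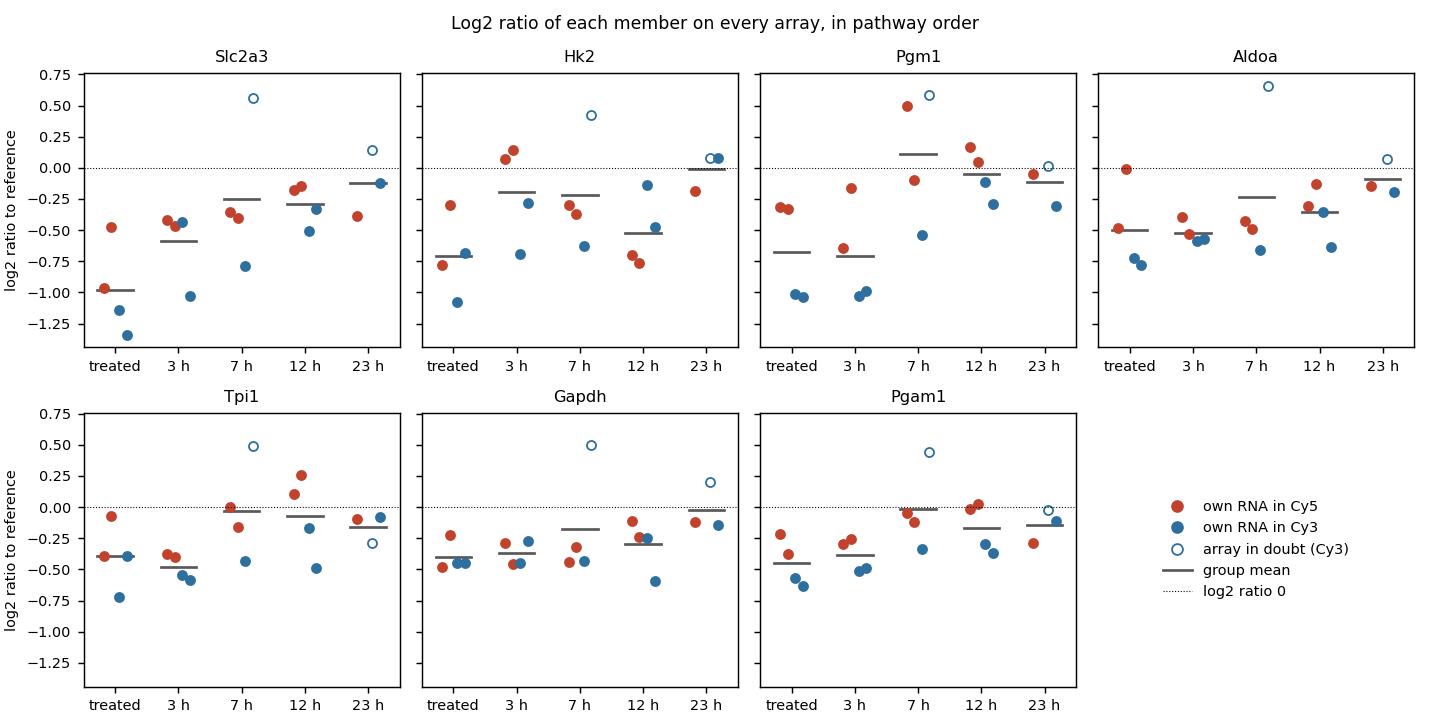
Log2 ratio (y axis) of each of the 7 genes on each of the 19 arrays, by group (x axis), with the group mean as a bar; treated arrays are set against non-treated cells and the time points against 0 h. Points are red with the own RNA in Cy5 and blue with it in Cy3, and open points are 7 h replicate 4 and 23 h replicate 3; on 7 h replicate 4 every gene lies above 0, at 0.42 to 0.66.

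In treated cells the genes that admit and trap glucose lay furthest from 0. Slc2a3, a high-affinity glucose transporter, had log2 ratios of -0.97, -0.47, -1.14 and -1.34 on treated replicates 1 to 4, with the estimate at -0.98 (SE 0.13, limma adjusted p = 0.792). Hk2, the hexokinase isoform that catalyses the first step in many proliferating cells, had -0.78, -0.30, -1.08 and -0.69 on the same arrays (estimate -0.71, SE 0.14, limma adjusted p = 0.792). Both genes were below 0 on every treated array, with replicate 2 the nearest to 0. Pgm1, which interconverts glucose 1-phosphate and glucose 6-phosphate, had -0.31, -0.33, -1.02 and -1.04 (estimate -0.67, SE 0.094, limma adjusted p = 0.792). Its Cy5 arrays, the first 2, were nearer to 0 than its Cy3 arrays, and the values of the 2 dyes did not overlap.

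The estimates of Aldoa, Tpi1, Gapdh and Pgam1 were nearer to 0 in treated cells. That of Tpi1 averages 2 unlike probes, at -0.85 (probe 15914) and 0.062 (probe 1338). Aldoa, which cleaves fructose 1,6-bisphosphate, had -0.48, -0.0073, -0.72 and -0.78 on treated replicates 1 to 4 (estimate -0.50, SE 0.13). Tpi1, which interconverts the triose phosphates, had -0.39, -0.073, -0.72 and -0.39 (estimate -0.40, SE 0.12). Replicate 2 was near 0 for both and the other 3 arrays were well below it. Gapdh, which makes NADH and 1,3-bisphosphoglycerate, had -0.48, -0.23, -0.45 and -0.45 (estimate -0.40, SE 0.10), the narrowest set of the 7. Pgam1, which moves the phosphate of 3-phosphoglycerate, had -0.21, -0.38, -0.57 and -0.64 (estimate -0.45, SE 0.099). Adjusted p-values from limma were 0.792 for Aldoa, Gapdh and Pgam1 and 0.793 for Tpi1.

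Across treated arrays, no feature of 15915 was called (0%), while 988 features (6.21%) and all 7 members had an unadjusted p under 0.05, and the smallest adjusted p of any feature was 0.743. Being below 0 on all 4 arrays held for 7 of 7 members and for 7.59% of the 15168 features with 4 values. The members' median estimate was -0.50, against 0.0090 over all features. Because the 7 genes were chosen with earlier results known, such shares and medians, here and at each time, describe them and test nothing. When the spread was shared with the time course in a single fit of 19 arrays, 773 features (4.86%) were called, among them Slc2a3, Hk2, Pgm1 and Pgam1. The SD over features was 0.593 to 0.616 on treated arrays, against 0.227 to 0.354 on the time-course arrays. The SE of the treated estimate was 0.18 in the single fit, against 0.13 in the separate fit, for Slc2a3, and 0.15 against 0.094 for Pgm1.

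At 3 h all 7 estimates were below 0 and 6 of the 7 genes were below 0 on all 4 arrays, as were 10.5% of 15962 features. Slc2a3 had -0.42, -0.47, -0.43 and -1.03 on 3 h replicates 1 to 4 (estimate -0.59, SE 0.17). Pgm1 had -0.65, -0.16, -1.03 and -0.99 (estimate -0.71, SE 0.15), and was the member furthest from 0. Aldoa had -0.40, -0.53, -0.59 and -0.57 (estimate -0.52, SE 0.16), close together on the 4 arrays. Replicate 4 lay furthest from 0 for Slc2a3, and Pgm1 varied most between arrays.

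The lower enzymes at 3 h were below 0 on all arrays too. Tpi1 had -0.38, -0.40, -0.54 and -0.59 (estimate -0.48, SE 0.12). Gapdh had -0.29, -0.46, -0.45 and -0.27 (estimate -0.37, SE 0.13), and Pgam1 had -0.30, -0.26, -0.52 and -0.49 (estimate -0.39, SE 0.11). Hk2 stood apart with 0.071, 0.14, -0.69 and -0.29 (estimate -0.19, SE 0.16), above 0 on both Cy5 arrays and below 0 on both Cy3 arrays. Whether Hk2 differed from the other members at 3 h was not tested.

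With limma, 0 of 16108 features were called at 3 h (0%), 1740 features (10.8%) had an unadjusted p under 0.05, and so did 6 of the 7 members. Their adjusted p was 0.424, and that of Hk2 was 0.661. The 3 h arrays themselves do not include the array in doubt, but the fit takes its spread from all 15 time-course arrays. Without 7 h replicate 4 the 3 h estimates stayed at the same values with smaller errors, and 11 features were called (0.0683%), among them Aldoa (SE 0.069, limma adjusted p = 0.0145) and Tpi1 (SE 0.074, limma adjusted p = 0.0495). With the sign of that array turned, 19 were called (0.118%), among them Aldoa, Tpi1 and Pgm1 (limma adjusted p = 0.00701, 0.0285 and 0.0303).

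The 7 h group rests on how its replicate 4 is read. Aldoa had -0.43, -0.49 and -0.66 on replicates 1 to 3 and 0.66 on replicate 4, and Slc2a3 had -0.36, -0.40 and -0.79 on the first 3 and 0.56 on replicate 4. For Gapdh the values were -0.44, -0.32 and -0.43, with 0.50 on replicate 4. In each of these genes 3 arrays lie on 1 side of 0 and replicate 4 lies on the other at a like distance. Hk2 had -0.30, -0.37, -0.63 and 0.42 on replicates 1 to 4. Tpi1 had 0 on replicate 1, where its 2 probes cancel, then -0.16, -0.43 and 0.49, and Pgam1 had -0.049, -0.12, -0.34 and 0.44. Both were nearest to 0 on replicates 1 and 2. Pgm1 had 0.50, -0.096, -0.54 and 0.58, so it was not on 1 side even without replicate 4.

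With all 4 arrays the 7 h estimates ran from -0.25 for Slc2a3 to 0.11 for Pgm1, and no member was below 0 on all 4 arrays, against 6.82% of 15964 features. None of 16087 features was called by limma (0%), with 1140 at an unadjusted p under 0.05 and no member among them. Without replicate 4, 5 of the 7 members were below 0 on the 3 remaining arrays, against 14.9% of 16001 features. The estimate was then -0.55 for Aldoa (SE 0.080, limma adjusted p = 0.0316), 1 of 13 features called (0.0807%), and -0.54 for Slc2a3 (limma adjusted p = 0.185), -0.44 for Hk2 (limma adjusted p = 0.398) and -0.41 for Gapdh (limma adjusted p = 0.164). Tpi1, Pgam1 and Pgm1 were at -0.25, -0.20 and -0.12. With the sign of replicate 4 turned, 78 features were called (0.485%), among them Aldoa at -0.56 (limma adjusted p = 0.00484) and Gapdh at -0.42 (limma adjusted p = 0.0290).

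At 12 h Hk2 gave the value furthest from 0, and 4 members were below 0 on all 4 arrays, against 7.01% of 15993 features. Hk2 had -0.70, -0.77, -0.14 and -0.47 on replicates 1 to 4 (estimate -0.52, SE 0.16, limma adjusted p = 0.677). Aldoa had -0.31, -0.13, -0.36 and -0.63 (estimate -0.36, SE 0.16), and Gapdh had -0.12, -0.24, -0.25 and -0.59 (estimate -0.30, SE 0.13). With all arrays, these 3 genes had an unadjusted p under 0.05, as did 1005 features (6.25%), and none of the 3 was called. Slc2a3 had -0.18, -0.15, -0.51 and -0.33 (estimate -0.29, SE 0.17).

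The other 3 genes overlapped 0 at 12 h. Tpi1 had 0.10, 0.26, -0.17 and -0.49 (estimate -0.075, SE 0.12), Pgm1 had 0.17, 0.048, -0.11 and -0.29 (estimate -0.047, SE 0.15), and Pgam1 had -0.017, 0.025, -0.30 and -0.37 (estimate -0.16, SE 0.11). In all 3 the Cy5 arrays lay above the Cy3 arrays. Only 3 of 16089 features were called by limma at 12 h (0.0186%), none of them a member, and without 7 h replicate 4 it was 1 (0.00622%), again no member. Without both arrays in doubt, 42 features were called (0.261%), among them Aldoa at -0.36 (SE 0.059, limma adjusted p = 0.0394).

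With all 3 arrays, the 7 genes were near 0 at 23 h. Slc2a3 had -0.39, 0.15 and -0.12 on replicates 1, 3 and 4, Hk2 had -0.19, 0.075 and 0.082, and Pgm1 had -0.053, 0.017 and -0.31. Aldoa had -0.14, 0.068 and -0.19, and Gapdh had -0.12, 0.20 and -0.14. Tpi1, with -0.099, -0.29 and -0.082, and Pgam1, with -0.29, -0.025 and -0.11, were below 0 on all 3 arrays, as were 9.42% of 16008 features. For 5 of the 7 genes replicate 3, the array with the shifted deposited median, was above 0. Without it the means of 2 arrays were -0.26 (Slc2a3), -0.052 (Hk2), -0.18 (Pgm1), -0.17 (Aldoa), -0.090 (Tpi1), -0.13 (Gapdh) and -0.20 (Pgam1). The estimates ran from -0.13 (Pgam1, 95% interval -0.40 to 0.14) to -0.020 (Hk2, 95% interval -0.44 to 0.40), and both intervals span 0. No feature of 16116 was called by limma (0%), 541 had an unadjusted p under 0.05, and no member did.

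Over the 4 times together, all 7 genes had a mean log2 ratio below 0, and the count of calls depended on which arrays were used. The estimate was -0.31 for Slc2a3 (SE 0.090), -0.30 for Aldoa (SE 0.084), -0.24 for Hk2 (SE 0.086) and -0.22 for Gapdh (SE 0.068). For Pgm1, Tpi1 and Pgam1 it was -0.18, -0.18 and -0.17. Limma called 0 of 16024 features (0%), with adjusted p-values of 0.597 to 0.682 for the members; all 7 members and 1163 features (7.26%) had an unadjusted p under 0.05. The members' median was -0.22, against 0.0027 over all features.

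Without 7 h replicate 4, limma called 69 of 16035 features (0.43%) over the 4 times, and 5 of the 7 members were among them, all below 0. Aldoa was at -0.37 (SE 0.037, limma adjusted p = 0.00126), Slc2a3 at -0.38 (SE 0.059, limma adjusted p = 0.0176) and Gapdh at -0.27 (SE 0.043, limma adjusted p = 0.0178). Pgam1 was at -0.22 (SE 0.037, limma adjusted p = 0.0258) and Tpi1 at -0.23 (SE 0.040, limma adjusted p = 0.0315). The value of Tpi1 averages 2 unlike probes. Fitted apart with all arrays, they were at -0.34 (probe 15914, SE 0.10) and -0.0085 (probe 1338, SE 0.049) over the 4 times. Hk2 at -0.29 (SE 0.072, limma adjusted p = 0.155) and Pgm1 at -0.23 (SE 0.062, limma adjusted p = 0.194) were not called. With the sign of that array turned the count was 103 (0.643%), and without both arrays in doubt it was 354 (2.21%), with the same 5 members in each. Without 23 h replicate 3 alone the count was 15 (0.0939%), none of them a member. The doubt about 7 h replicate 4 comes from its repeated extreme value and not from the 7 genes, but it was raised after the data were seen.

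**Figure D2:**
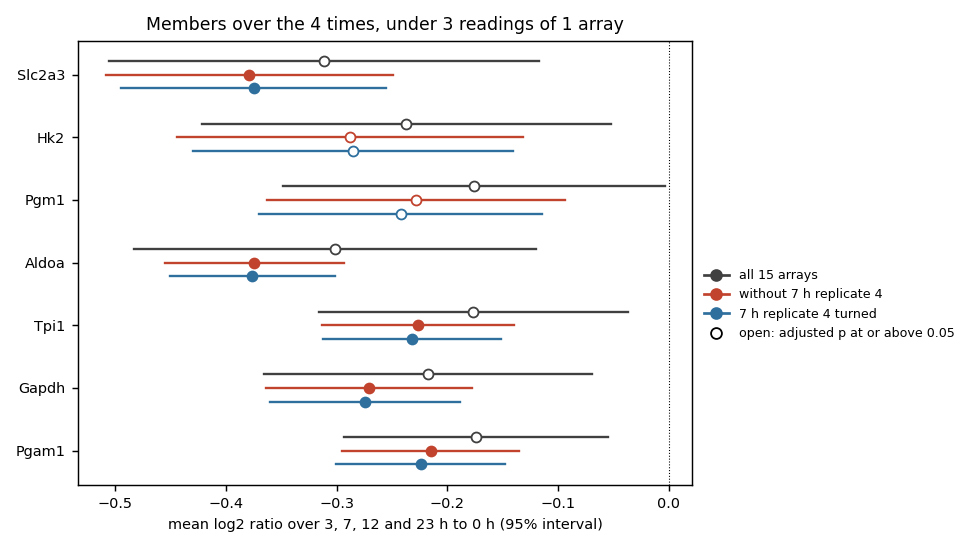
Mean log2 ratio over 3, 7, 12 and 23 h against 0 h (x axis) of each gene (y axis), with 95% intervals, for all 15 time-course arrays, without 7 h replicate 4, and with the sign of that array turned. Filled points have an adjusted p under 0.05: none with all arrays, and Slc2a3, Aldoa, Tpi1, Gapdh and Pgam1 under both other readings, while the estimates move by less than 0.1.

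Later times did not differ detectably from earlier ones in these genes. The mean of 12 h and 23 h minus the mean of 3 h and 7 h was 0.24 for Pgm1 (95% interval -0.10 to 0.59), 0.21 for Slc2a3 (-0.18 to 0.60) and 0.15 for both Aldoa and Tpi1. It was 0.10 for Gapdh, 0.055 for Pgam1 and -0.066 for Hk2. No member had an unadjusted p under 0.05, 986 features did, and limma called 0 of 16024 (0%). Without 7 h replicate 4 the difference was 0.33 for Aldoa (95% interval 0.16 to 0.49, limma adjusted p = 0.398) and 0.37 for Slc2a3 (0.11 to 0.63, limma adjusted p = 0.576). Then 5 members had an unadjusted p under 0.05, as did 1120 of 16035 features. No member was called, and 3 features were (0.0187%).

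Read array by array, the 7 genes had their median in the lower part of all features on most arrays. Their median lay so low that 1.12% to 5.6% of features were below it on the 3 h arrays, 3.48% to 7.62% on 7 h replicates 1 to 3, 2.37% to 27.1% on the 12 h arrays and 2.69% to 23.6% on the treated arrays. On 7 h replicate 4 the share was 97%, and on 23 h replicates 1, 3 and 4 it was 21.3%, 65.5% and 21.7%. The members' median thus lay below the middle of all features on 17 arrays. It lay above the middle on the 2 arrays in doubt, at 97% on 7 h replicate 4 and only 65.5% on 23 h replicate 3. In treated cells the members' mean was nearer to 0 on the Cy5 arrays (-0.52, -0.26) than on the Cy3 arrays (-0.81, -0.76). The same held at 3 h (-0.34, -0.30 against -0.61, -0.60) and at 12 h (-0.15, -0.14 against -0.26, -0.45). At 23 h it did not, with -0.18 against 0.027 and -0.125, and 7 h replicate 4 lay above 0, at 0.52.

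**Figure D3:**
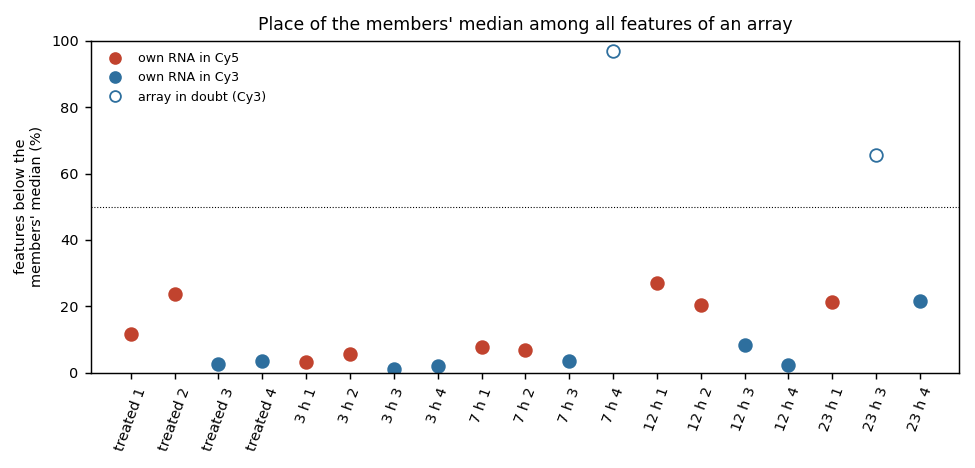
Percent of features whose log2 ratio lies below the median of the 7 genes (y axis) on each array (x axis, group and replicate number), coloured by the dye of the own RNA, with open points for 7 h replicate 4 and 23 h replicate 3. The 3 h arrays lie at 1.12% to 5.6% and 7 h replicate 4 lies at 97%.

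The 3 probes of Aldoa and the 2 of Gapdh all had group means below 0 in every group. At 3 h Gapdh probe 19122 averaged -0.50 ± 0.19 and Gapdh probe 16944 averaged -0.24 ± 0.12 (SD, n = 4 each). The 2 probes of Tpi1 disagreed. Tpi1 probe 15914 averaged -0.85 ± 0.38 in treated cells and -0.88 ± 0.23 at 3 h (SD, n = 4 each), while Tpi1 probe 1338 averaged 0.062 ± 0.37 and -0.078 ± 0.097 on the same arrays. Probe 15914 was below 0 on all 8 of these arrays and probe 1338 on 5 of them, so the averaged value of Tpi1 lies between 2 unlike readings. At 23 h they were close, at -0.14 ± 0.14 for probe 15914 and -0.17 ± 0.12 for probe 1338 (SD, n = 3). Which transcripts each probe binds was not tested, and Gapdh and Tpi1 have related sequences elsewhere in the mouse genome that a spotted probe may also bind.

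**Figure D4:**
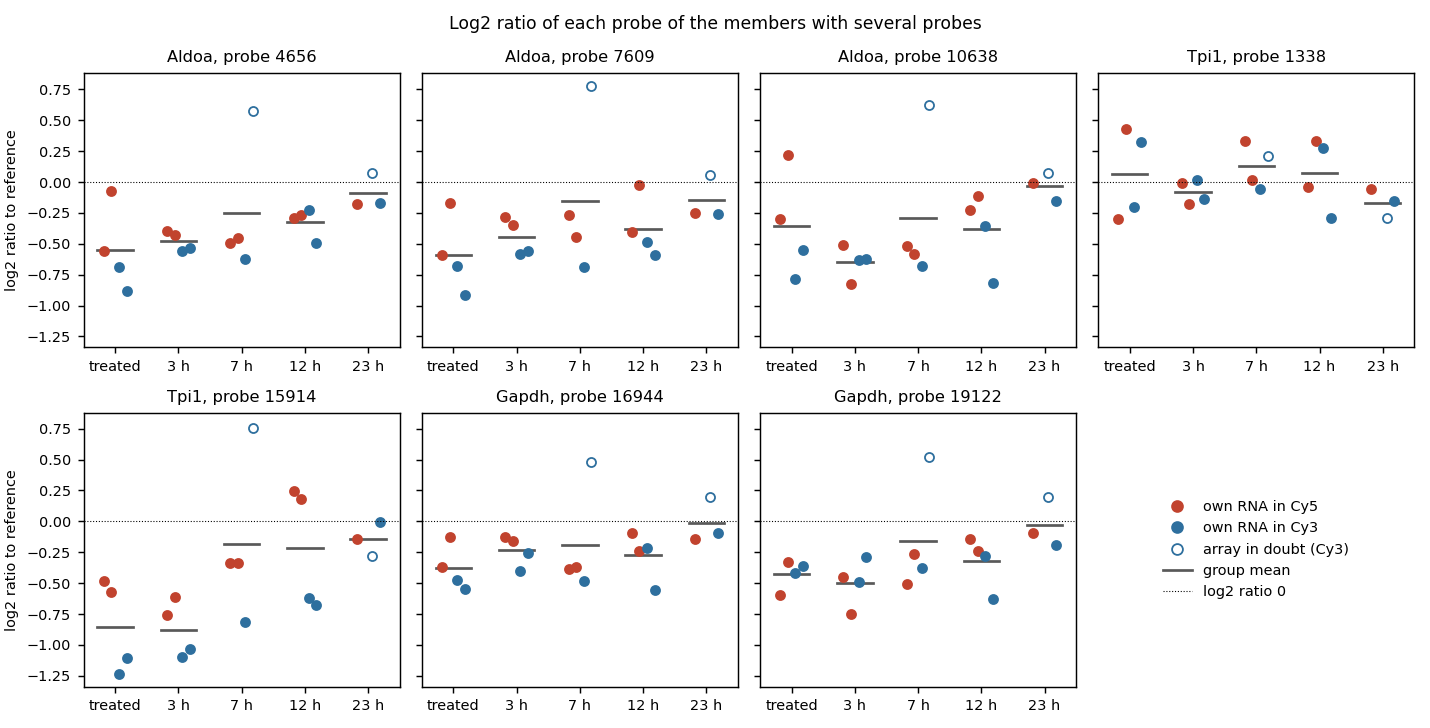
Log2 ratio (y axis) of each probe of Aldoa, Tpi1 and Gapdh on every array by group (x axis), with group means as bars and colours as for the genes. Tpi1 probe 15914 averages -0.88 at 3 h and Tpi1 probe 1338 averages -0.078.

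Most other measured genes of the pathway lay nearer to 0, and none was called with all arrays in the separate fits. Not every listed gene was measured. It was 11 of 20 for glucose uptake and upper glycolysis and 12 of 16 for lower glycolysis and lactate. Slc2a1, Pgk1, Eno1 and Ldha were among those without a value, so the lists do not show the whole pathway. Over the 4 times, 7 of 11 measured genes of glucose uptake and upper glycolysis were below 0 (median -0.041), as were 8 of 12 of lower glycolysis and lactate (median -0.064), 5 of 9 of glycogen and sugar phosphates, 3 of 4 of the pentose phosphate pathway, 6 of 10 of pyruvate entry and 5 of 13 regulators such as Hif1a and Arnt. Without 7 h replicate 4, 2 genes of lower glycolysis and lactate were called, both below 0: Pgk2, the testis form of phosphoglycerate kinase, at -0.33 (limma adjusted p = 0.00789), and Pkm, pyruvate kinase, at -0.28 (limma adjusted p = 0.0166). No gene of the other 5 pathway lists was called. On the treated arrays 6 of 11 genes of glucose uptake and upper glycolysis were below 0 (median -0.065). For lower glycolysis and lactate it was 4 of 12 (median 0.070), and for glycogen and sugar phosphates 6 of 9 (median -0.12). For the pentose phosphate pathway it was 2 of 4, for pyruvate entry 3 of 9 and for the regulators 4 of 13.

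In treated cells, the genes of these lists with the smallest p were Gys1 (glycogen synthase) at -0.88, Egln1 (a prolyl hydroxylase that marks Hif1a for degradation) at -0.72, Eno3 (an enolase) at -0.53 and Pgk2 at 0.57, each with a limma adjusted p of 0.792. The estimates of Pgk2 thus had opposite signs in the treated cells and over the time course, at 0.57 and -0.27 with all arrays. On treated replicates 1 to 4 its 1 probe read 0.24, -0.12, 1.18 and 0.96, so those arrays did not share a sign. Over the 4 times the others with the smallest p were Eno3 at -0.24, Pkm at -0.22 and Slc2a4 (the insulin-responsive transporter) at 0.096. For late minus early they were Pdk1 at 0.31, Akt1 at -0.25, Rpia at -0.18 and Pygb at -0.15, none called.

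Markers of other cell types were measured beside these genes. A log ratio holds no level, so the labelled cell type could not be checked by whether its markers are present. Of 8 neutrophil markers, 7 were below 0 over the 4 times (median -0.27, range -0.40 to 0.055) and 7 had an unadjusted p under 0.05, with none called; in treated cells 6 of 8 were below 0 (median -0.077). All 3 measured monocyte markers were below 0 over the 4 times (median -0.10), while 11 haematopoietic progenitor markers had a median of -0.00040. Without 7 h replicate 4, no neutrophil or monocyte marker was called, and of the progenitor markers Csf2rb and Tal1 were, 1 below and 1 above 0. The part of these markers in the values of the 7 genes was not tested. In RNA from whole cultures, fewer cells of a type and less of an RNA per cell cannot be told apart.

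The mean of the 7 genes over the 19 arrays was most like Higd1a, with a root mean square difference of 0.162, then Mvd (0.168), Scd2 (0.168), Fam83g (0.169) and Atp4a (0.171). The measure was taken over 8976 genes with a value on all 19 arrays and no clone name, whose median was 0.488. The members themselves lay at 0.137 (Aldoa) to 0.274 (Hk2) from their mean. Only Aldoa and Pgam1 were nearer to it than Higd1a. These arrays share references and dyes and include both arrays in doubt, so the likeness is a description.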

How the data were processed

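The authors deposited 1 log ratio per spot from 2-colour arrays, treated here as log2; no source used here names the base, the numerator or the normalization. Per the labels' protocols, cDNA from total RNA received Cy3 or Cy5 by indirect labelling; because these protocols also speak of organs and control animals, each reference follows the sample's own channel labels. Each array's repeated extreme value (absolute value above 10) was set to missing, arrays were centred on their median and probes of 1 symbol were averaged. A feature needed values on 3 of 4 arrays, or 2 of 3 at 23 h. Of 20205 probes, 13891 had 1 symbol, 5 several and 6309 none in the platform table.

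Log ratios were tested against 0 with limma 3.58.1 (lmFit, eBayes) in R 4.3.3, with the dye as a term and Benjamini-Hochberg adjustment over all features, threshold 0.05. The 4 treated arrays and the 15 time-course arrays were fitted apart. The scripts were tested on simulated data. Precision is limited by the number of arrays, since spot intensities were not used. At most 0.289% of values were identical between 2 arrays.

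The 7 genes and the other lists were chosen with earlier results of these data known. All 7 are named, with the 4 other pathway genes of smallest p in 3 comparisons, and the 5 genes nearest to the members' mean. Alternatives changed the dye term, signs, centring, weights, scaling, filters, arrays and the averaging of probes. Turning the sign of 7 h replicate 4, and each probe as its own feature, were added after the data were seen. Replicate 2 at 23 h was not analysed here.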

Additional observations from a re-analysis of the deposited data

Results flagged for a closer look

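Of 28 sets of 4 arrays (7 genes in treated cells and at 3, 7 and 12 h), 3 held an array far from the others by Dixon's ratio of its gap to the range; chance sets apart about 1 in 20 such sets. Slc2a3 at 3 h was -1.029 on replicate 4, against -0.465 to -0.417 on the other arrays. In treated cells, Gapdh was -0.2265 on replicate 2, nearer to 0 than on the other 3 arrays. At 7 h, Gapdh was 0.5 on replicate 4, against -0.4445 to -0.318 on the other arrays, and this is the array whose repeated extreme value goes against its dye label.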

How the results depend on the processing

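Of 616 recomputed member values under settings other than leaving out 1 array, 547 kept their direction and their side of the threshold, 24 became called and 45 changed sign; leaving out 1 array at a time gave 634 of 658, 8 and 16. The causes were not tested beyond what each setting removes. Turning the sign of every Cy3 array gave, in treated cells, 0.2603 (Slc2a3), 0.1725 (Hk2), 0.3515 (Pgm1), 0.2531 (Aldoa), 0.1619 (Tpi1), 0.0474 (Gapdh) and 0.154 (Pgam1). At 3 h it gave 0.1453 (Slc2a3), 0.2972 (Hk2), 0.3037 (Pgm1), 0.0577 (Aldoa), 0.0879 (Tpi1) and 0.1117 (Pgam1). At 12 h it gave 0.1283 (Slc2a3), 0.1535 (Pgm1), 0.1382 (Aldoa), 0.2538 (Tpi1), 0.1215 (Gapdh) and 0.1678 (Pgam1), and at 23 h 0.0139 (Pgm1) and 0.0291 (Tpi1). Over the 4 times it gave 0.14 (Pgm1), 0.0793 (Tpi1) and 0.0245 (Pgam1), for late minus early -0.068 (Slc2a3) and -0.1127 (Pgm1), and 2 calls in each of these comparisons. Without centring, 23 h was 0.0538 (Hk2), 0.0127 (Pgm1) and 0.0405 (Gapdh).

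The Cy5 arrays alone gave 0.107 for Hk2 at 3 h, and 0.107 (Pgm1), 0.1792 (Tpi1) and 0.004 (Pgam1) at 12 h; their calls were 3 at 3 h, 3 at 7 h, 0 at 12 h, 17 at 23 h, 62 over the 4 times and 3 for late minus early. The Cy3 arrays alone gave 0.026 (Tpi1), 0.0347 (Gapdh) and 0.053 (Pgam1) at 7 h, 0.011 (Slc2a3), 0.0785 (Hk2) and 0.0278 (Gapdh) at 23 h, 0.182 (Hk2) and -0.0335 (Gapdh) for late minus early, and 1 call at 12 h. Without both arrays in doubt, Pgm1 was -0.1273 at 7 h and Hk2 0.0313 for late minus early, with 16 calls at 3 h, 77 at 7 h, 42 at 12 h, 59 at 23 h, 354 over the 4 times and 2 for late minus early. With the sign of 7 h replicate 4 turned, these were -0.1805 and 0.0496, with 19 calls at 3 h, 78 at 7 h, 103 over the 4 times and 5 for late minus early. A single fit of 19 arrays called 773 features in treated cells. At 12 h, keeping the extreme values gave 0 calls, array weights 9, a value on every array 0, and separate probes 5.

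Leaving out 1 array gave 0 to 11 calls at 3 h, 0 to 13 at 7 h, 0 to 10 at 12 h, 0 to 1 at 23 h, 0 to 69 over the 4 times and 0 to 3 for late minus early. The highest counts at 3 h, 7 h and over the 4 times were without 7 h replicate 4, that at 12 h without 12 h replicate 3. Ranges that crossed 0 were, at 23 h, -0.257 to 0.0582 (Slc2a3), -0.055 to 0.0682 (Hk2), -0.179 to 0.0381 (Pgm1), -0.1298 to 0.04 (Gapdh) and -0.2 to 0.0025 (Pgam1). At 7 h they were -0.12 to 0.291 (Pgm1), -0.2475 to 0.0902 (Tpi1) and -0.196 to 0.0886 (Pgam1), at 3 h -0.3243 to 0.0049 (Hk2), at 12 h -0.164 to 0.0451 (Tpi1), and for late minus early -0.1725 to 0.0558 (Hk2) and -0.0013 to 0.1539 (Pgam1). With the replicate block the counts of calls were as without it (12 h: 3) and no member was called; treated arrays could not be fitted with it. Deviations from the group means correlated at -0.108 to 0.194 between same-numbered arrays, and 9 of 19 arrays correlated best with their own number. Arrays of another number with the same dye correlated at -0.048 to 0.145. These correlations cannot tell whether same-numbered arrays share a culture.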
